A study of Mus musculus with 2 samples.

Results

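The miR-7 and miR-671 genes were examined in small RNA sequencing of mouse cerebral cortex. The members were the microRNA genes Mir7a-1, Mir7a-2, Mir7b and Mir671, chosen because their mature products bind or cleave the circular RNA Cdr1as, and they were 4 of the 2202 microRNA genes counted. The symbols Mir7b and Mir671 matched GENCODE M21 directly. Mir7a-1 and Mir7a-2 are listed there as Mir7-1 and Mir7-2 and were matched through RefSeq synonyms with the same start and end. The 2 libraries form a single group of left cerebral cortex tissue from male B6CASTF1/J mice aged 14 days, a first-generation cross between C57BL/6 and CAST/Ei strains, with no treatment named. They are labelled biological replicates 1 and 2 and carry 1 donor label. The labels also hold the words "3x Males", and they do not state whether animals were pooled or whether the libraries came from separate animals, so the spread between them may be technical.

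MicroRNAs are cut from hairpin precursors into short strands from the 5′ and 3′ arms, and one of these strands guides Argonaute to RNAs that pair with its seed. miR-7 is enriched in neurons and neuroendocrine cells, and Cdr1as, an abundant circular RNA of mammalian neurons, carries many miR-7 seed matches. miR-671-5p pairs almost fully with Cdr1as and directs its cleavage, as shown in human cells. In mice that lack Cdr1as, brain miR-7 is lower and miR-671 higher, and in mouse brain the long non-coding RNA Cyrano triggers destruction of miR-7. Cdr1as and Cyrano are not microRNA genes and were not measured in these libraries.

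The mature sequences show which reads can tell the genes apart, so all 8 entries are given. They are RefSeq sequences of build GRCm38.p6, written 5′ to 3′, with the seed (bases 2 to 8) in capitals. RefSeq lists miR-7a-5p once at each of its genes.
miR-7a-5p of Mir7a-1 (chr13:58392841-58392863, minus strand): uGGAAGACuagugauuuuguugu
miR-7a-5p of Mir7a-2 (chr7:78888295-78888317, plus strand): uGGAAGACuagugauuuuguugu
miR-7b-5p of Mir7b (chr17:56243017-56243040, plus strand): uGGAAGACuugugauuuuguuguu
miR-671-5p of Mir671 (chr5:24592132-24592154, plus strand): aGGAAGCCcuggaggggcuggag
miR-7a-1-3p (chr13:58392800-58392821, minus strand): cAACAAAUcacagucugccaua
miR-7a-2-3p (chr7:78888335-78888356, plus strand): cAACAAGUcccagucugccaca
miR-7b-3p (chr17:56243055-56243076, plus strand): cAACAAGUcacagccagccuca
miR-671-3p (chr5:24592171-24592191, plus strand): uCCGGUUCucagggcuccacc

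The 5′ arms of the 3 Mir7 genes carried 1 seed, GGAAGAC, which occurred in no other of the 1738 mature sequences of the RefSeq table. The seed of miR-671-5p, GGAAGCC, was also found at its own gene alone. Counting from 1 at the 5′ end with miR-7a-5p first, the miR-7a-5p and miR-671-5p seeds differ by the single substitution A7C. The other 6 of the 7 seed bases are identical, against 1 of the 16 positions compared outside the seed. miR-7a-5p and miR-7b-5p are identical at 22 of 23 compared positions and differ by A10U, outside the seed. The 3′ arms are further apart: miR-7a-1-3p and miR-7a-2-3p differ at 3 of 22 positions (A7G, A10C and U21C), and miR-7a-2-3p and miR-7b-3p differ at 4. The seed of miR-7a-1-3p is therefore its own, whereas miR-7a-2-3p and miR-7b-3p share theirs. In base composition the miR-7 guides are AU-rich (34.8% G or C in miR-7a-5p and 33.3% in miR-7b-5p), while miR-671-5p holds 69.6% G or C.

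The hairpins of the Mir7a genes show how far this identity runs. They are printed from GENCODE M21 (mm10) with the longest run that the pair shares in capitals.
Mir7a-1 (chr13:58392779-58392886, minus strand): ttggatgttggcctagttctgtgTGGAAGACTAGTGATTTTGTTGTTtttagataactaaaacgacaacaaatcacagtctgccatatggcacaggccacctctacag
Mir7a-2 (chr7:78888277-78888373, plus strand): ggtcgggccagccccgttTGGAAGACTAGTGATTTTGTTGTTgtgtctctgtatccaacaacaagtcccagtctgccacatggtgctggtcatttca

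The shared run is 24 bases long and holds the whole of miR-7a-5p plus 1 base. In the deposited counts, reads with several genomic matches went to no gene, and a read lying within this run matches both genes. The counts of Mir7a-1 and Mir7a-2 therefore hold only reads that reach beyond the run, such as reads of the 3′ arm, and how many reads they leave out is not known. Mir7b shares at most 14 bases in a row with either of them. At a stretch of 18 bases Mir7a-1 and Mir7a-2 shared sequence with each other and with no further microRNA gene, and Mir7b and Mir671 shared none, against 50.9% of the 2202 genes that shared such a stretch with another gene. How many mismatches the alignment allowed is not stated, so the single base between miR-7a-5p and miR-7b-5p bears on Mir7b as well. The files do not separate the arms, so which strand gave the counts of each gene is not known.

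The 4 genes lie on 4 chromosomes and none is part of a microRNA cluster: the nearest other annotated microRNA gene was 70863 bases away for Mir7b and further for the rest. Mir7a-1 lies in an intron of Hnrnpk, which encodes an RNA-binding protein, on the same strand. Mir671 overlaps exon and coding sequence of Chpf2, a chondroitin polymerizing factor gene, on the same strand, in 2 of its 6 annotated transcripts. It also overlaps an exon of 1 of 9 transcripts of Smarcd3, a chromatin-remodelling subunit gene, on the opposite strand. Mir7a-2 and Mir7b overlap no annotated gene. Mir7a-2 lies 7481 bases from Aen, and Mir7b lies 183 bases from an annotated long non-coding RNA gene and 13712 bases from Fem1a.

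All counts below are reads on the strand of the gene, and CPM is counts per 1000000 reads counted in microRNA genes, of which there were 4111167 (replicate 1) and 3189903 (replicate 2). A small RNA read covers a mature strand of 21 to 24 bases in these genes, so counts were not divided by hairpin length. The word detected is used for the 406 genes that reached 10 counts or more in both libraries, and the 4 members are among them. On the opposite strand the members' counts were 0 throughout, a result compatible with at most 0.730 CPM (replicate 1) or 0.940 CPM (replicate 2). Intervals and such limits cover counting error only, because reads carry no molecular identifiers.

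Mir7b (ENSMUSG00000065491.1; chr17:56242988-56243098, plus strand) was the most abundant of the 4 genes. It had 15268 counts (replicate 1) and 7877 counts (replicate 2), which is 3714 CPM (exact 95% interval 3655 to 3773) and 2469 CPM (2415 to 2524). Its mean was 3092 ± 880 CPM (SD, n = 2), rank 59 of the 406 detected genes and above 85.5% of them. Replicate 1 was the higher library by far more than the counting intervals.

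The Mir7a genes had much lower counts. Mir7a-2 (ENSMUSG00000065609.1) had 1192 and 409 counts in replicates 1 and 2, which is 290 and 128 CPM, with a mean of 209 ± 114 CPM (SD, n = 2) and rank 184. Mir7a-1 (ENSMUSG00000065434.1) had 547 and 254 counts, which is 133 and 79.6 CPM, with a mean of 106 ± 37.8 CPM and rank 212. Both were higher in replicate 1, where the exact 95% intervals were 274 to 307 CPM and 122 to 145 CPM, than in replicate 2, where they were 116 to 141 CPM and 70.1 to 90.0 CPM. The median detected gene stood at 129 CPM, so Mir7a-2 was above it and Mir7a-1 below it on the mean of the libraries.

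Mir671 (ENSMUSG00000076387.1; chr5:24592114-24592211, plus strand) had 5381 counts in replicate 1 and 4376 in replicate 2. This is 1309 CPM (exact 95% interval 1274 to 1344) and 1372 CPM (1332 to 1413), with a mean of 1340 ± 44.5 CPM (SD, n = 2). It ranked 96 of 406, above 76.4% of detected genes. The libraries lay closer together here than for any Mir7 gene: the SD was 3.32% of the mean, against 28.5% for Mir7b, 35.5% for Mir7a-1 and 54.7% for Mir7a-2.

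**Figure D1:**
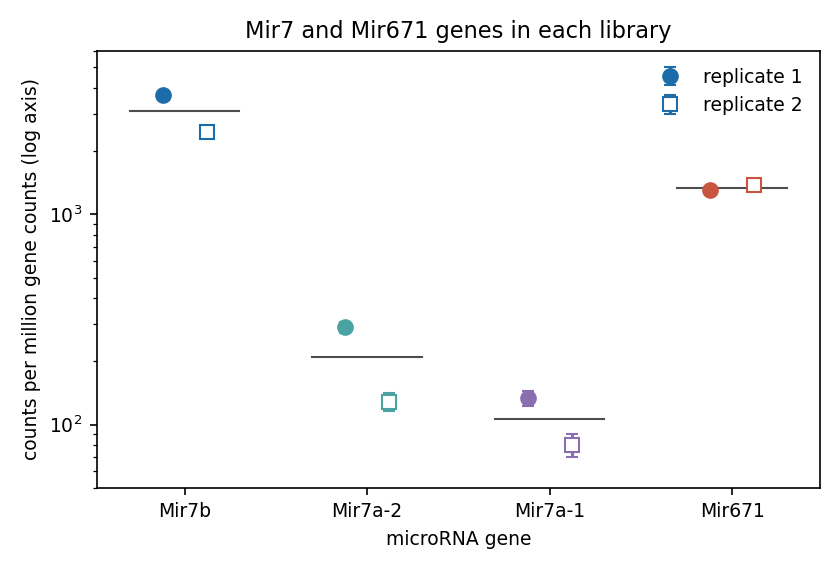
CPM on a log axis for each gene, with replicate 1 as filled circles, replicate 2 as open squares, exact 95% counting intervals as bars (hidden by the symbol where short) and the mean of the libraries as a line. Each Mir7 gene is higher in replicate 1, and the Mir671 points at 1309 and 1372 CPM nearly meet.

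The order of the genes was the same in both libraries: Mir7b, Mir671, Mir7a-2 and Mir7a-1, from high to low. Neighbours in this order did not have overlapping counting intervals in either library. Across libraries the ranges of Mir7a-2 and Mir7a-1 overlapped, with Mir7a-2 at 128 CPM in replicate 2 and Mir7a-1 at 133 CPM in replicate 1, although Mir7a-2 was the higher gene within each library. The smallest two-sided p that an exact sign-flip test over 2 libraries can give is 0.5, so none can pass 0.05.

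Together the 4 genes held 0.545% of the gene counts of replicate 1 and 0.405% of those of replicate 2, a mean of 0.475% ± 0.0988 (SD, n = 2). Within the miR-7 family, Mir7b took 89.8% of the counts of replicate 1, with an exact 95% interval of 89.3 to 90.2%, and 92.2% of those of replicate 2, with one of 91.6 to 92.8%. Mir7a-2 took 7.01% and 4.79%, and Mir7a-1 took 3.22% and 2.97%. This split describes counted reads and not the mature strands in the tissue, since miR-7a-5p reads within the shared run enter none of these counts. Mir7b had 8.78 times the summed counts of the Mir7a genes in replicate 1 and 11.9 times in replicate 2, ratios that leave out the same reads.

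Mir671 had 0.316 times the summed counts of the 3 Mir7 genes in replicate 1, with an exact 95% interval of 0.307 to 0.326, against 0.512 times in replicate 2, with one of 0.494 to 0.531, a mean of 0.414 ± 0.139 (SD, n = 2). The counting intervals of the libraries did not overlap. Of its terms, the summed Mir7 level was 4137 CPM in replicate 1 against 2677 CPM in replicate 2, while Mir671 stood at 1309 against 1372 CPM. Set against Mir7b alone, which shares no stretch of 18 bases with another microRNA gene, Mir671 stood at 0.352 in replicate 1 and 0.556 in replicate 2. Matches of Mir7b elsewhere in the genome were not searched. Set against the Mir7a genes alone Mir671 stood at 3.09 and 6.60. The Mir7a counts and the summed Mir7 counts leave out miR-7a-5p reads within the shared run. With those reads the ratios to them would be lower, by an amount not known.

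The libraries were then compared gene by gene, which compares 2 libraries and no conditions. A two-sided exact binomial test asked whether a gene's counts split between the libraries as their totals did, adjusted by Benjamini-Hochberg over the 406 detected genes. This test allows for sampling of reads only. Past an adjusted p of 0.05 lay 4 of the 4 members, against 58.1% of all detected genes, so a call is common here. It was more common among genes with more counts: with a minimum of 50 counts in each library, 217 of 291 genes were called. The 3 Mir7 genes were higher in replicate 1, where 34.7% of detected genes were called, and Mir671 was lower in replicate 1, where 23.4% were called. With DESeq2 size factors 108 genes were called higher and 112 lower in replicate 1, in place of 141 and 95, and each member kept its direction.

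Mir7a-2 differed most, at a log2 ratio of replicate 1 over replicate 2 of 1.18 (exact 95% interval 1.01 to 1.34; adjusted p = 2.34e-50, exact binomial test), a 2.26-fold difference in CPM. Of the 406 detected genes, 27 had a larger absolute log2 ratio. Mir7a-1 had a log2 ratio of 0.74 (0.52 to 0.96; adjusted p = 1.72e-11, exact binomial test), and 75 genes had a larger one. Mir7b had a log2 ratio of 0.59 (0.55 to 0.63; adjusted p = 3.68e-196, exact binomial test), and 112 genes had a larger one. These values stand against a median absolute log2 ratio of 0.30 over all detected genes and a median signed log2 ratio of 0.08. Each Mir7 gene thus lay further apart between the libraries than the median gene did, although the largest and smallest of the 3 ratios differed among themselves by more than their intervals.

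Mir671 had a log2 ratio of -0.068 (exact 95% interval -0.13 to -0.01; adjusted p = 0.0367, exact binomial test), and 361 of 406 detected genes had a larger absolute ratio. Its call was lost when genes were tested without a count minimum (adjusted p = 0.0646; range over the alternatives 9.20e-07 to 0.0646), and with TMM scaling its log2 ratio was -0.15 (adjusted p = 1.57e-06).

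**Figure D2:**
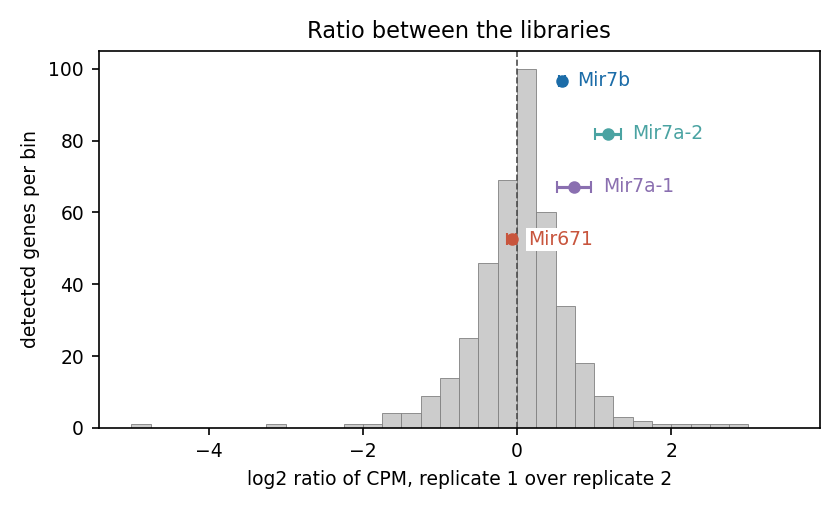
Histogram of the log2 ratio of CPM, replicate 1 over replicate 2, over the 406 detected genes, with the 4 members drawn as points at their own ratio with exact 95% intervals (their height has no meaning). Mir7b, Mir7a-2 and Mir7a-1 lie right of 0 at 0.59, 1.18 and 0.74, and Mir671 lies at -0.068.

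Other brain microRNAs did not share 1 direction. Of the 20 genes of a neuron-enriched list 16 were detected, and all 16 were called, against 58.1% of all detected genes. A call depends on counts, and with a minimum of 50 counts 217 of 291 genes were called. Genes of like abundance were not compared. Of the 16 called, 9 were higher and 7 lower in replicate 1, against 34.7% and 23.4% of all detected genes. Their median log2 ratio was 0.16, against 0.08 over all detected genes. Their summed level was 156340 CPM (replicate 1) and 144116 CPM (replicate 2), led by Mir139 at 101560 and 83088 CPM. Without Mir139 the order of the libraries turned, at 54780 CPM (replicate 1) and 61028 CPM (replicate 2). Of the 20 genes 7 stood above Mir7b and 8 above Mir671 in mean CPM. The last of the list, Mir124a-3, one of several copies of its gene, had 2 and 8 counts. The list also holds copies of Mir9, Mir128, Mir129, Mir138 and Mir218, and reads that match several copies went to no gene. Counts of such copies can fall short of the level in the tissue, so this ranking describes counted reads only.

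miR-7 is also abundant in neuroendocrine cells and pancreatic islets, so a list named for those cells was read beside it. It holds Mir375 with Mir200a, Mir200b, Mir200c, Mir141 and Mir429. Whether the genes beside Mir375 are particular to such cells was not tested. Of the 6 genes 4 were detected, with summed levels of 96.6 CPM in replicate 1 and 197 CPM in replicate 2. Of the 4 detected, 1 was called higher and 3 lower in replicate 1, against 34.7% and 23.4% of all detected genes. Mir375, known from islets and pituitary, led them at 43.1 and 89.3 CPM, and Mir141 was last with 2 and 1 counts. The summed level was lower in replicate 1, where the Mir7 genes were higher, but the genes were mixed. Mir200c, named after its value was seen, was called higher in replicate 1 at 24.6 against 14.7 CPM. No gene of the list reached Mir7a-1 on the mean of the libraries. Mir375 was below Mir7a-1 in replicate 1 (43.1 against 133 CPM) and above it in replicate 2 (89.3 against 79.6 CPM). The Mir7a-1 counts leave out miR-7a-5p reads within the shared run.

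Lists for other cells give the tissue check. The oligodendrocyte list summed to 2864 and 2531 CPM in replicates 1 and 2, led by Mir219a-2 (1622 and 1440 CPM), with Mir219a-1 last at 40 and 32 counts. The microglia and leukocyte list summed to 1915 and 2061 CPM, led by Mir146 (881 and 1090 CPM), with Mir223 last at 68 and 61 counts. In the endothelial list Mir126a stood at 10449 and 13176 CPM and Mir126b had 1 count in each library. The list for liver, muscle and red cells summed to 132 and 160 CPM, led on the mean of the libraries by Mir451a (37.0 and 70.5 CPM). In replicate 1 Mir122 was higher than Mir451a, and it stood at 51.8 and 48.0 CPM. In it 5 of the 11 genes had 0 counts in both libraries, Mir1a-2 among them. Mir1a and Mir133a have 2 copies each in the list, and reads that match both copies went to no gene. Their 0 counts therefore do not show absence. Mir133b, which has a single entry in the list, also had 0 counts in both libraries. Without the leading gene the order of the libraries turned for the microglia and leukocyte list (1034 and 970 CPM) and for the list of liver, muscle and red cells (94.6 and 89.7 CPM). The part of any of these cells in the Mir7 difference was not tested. In tissue libraries fewer cells of a type and less RNA per cell cannot be told apart.

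**Figure D3:**
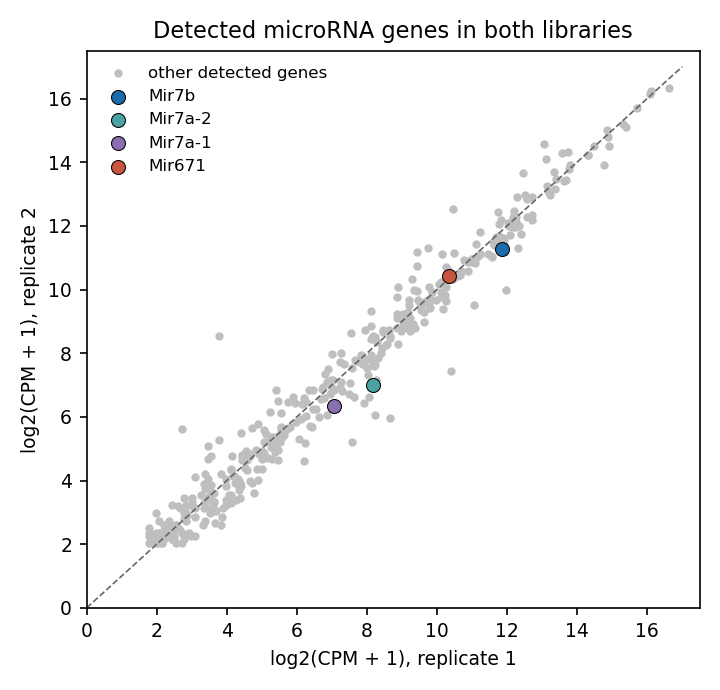
Each detected gene by log2(CPM + 1) in replicate 1 (horizontal) and replicate 2 (vertical), with the 4 members in colour and the line of equal levels dashed. The 3 Mir7 genes lie below the line and Mir671 lies on it.

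The genes most like each member were found by the distance in log2(CPM + 1) over the 2 libraries, which describes level and ratio and has no test. For Mir7b they were Mir337 (distance 0.24), Mir221 (0.28) and the neuron-list gene Mir383 (0.28), the last with 3887 CPM (replicate 1) and 2981 CPM (replicate 2). For Mir7a-2 they were Mir500 (0.16), Mir136 (0.33) and Mir539 (0.41). For Mir7a-1 they were Mir148a (0.06), the leukocyte microRNA Mir142 (0.35) and Mir203 (0.40). For Mir671 they were Mir874 (0.01), Mir3099 (0.07) and Mir300 (0.14), and Mir874 had 5333 and 4363 counts in replicates 1 and 2. No gene was in the set of more than 1 member.

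The Mir7a pair was set beside the other families of gene copies, which are genes whose symbols differ by a final -1, -2 or -3. There were 53 such families in the files. In 23 of them all copies had an identical mature arm in the RefSeq table and at least 1 copy reached 10 counts. An arm that this table lacked for any copy could not be compared. Mirlet7a (1445 and 1294 counts of its leading copy in replicates 1 and 2) and Mir124a (9 and 19) are left out for this reason. In 19 of the 23 the other arm differed between copies, as it does for Mir7a-1 and Mir7a-2. By summed CPM over copies the Mir7a pair, with 423 CPM (replicate 1) and 208 CPM (replicate 2), had 12 of the 23 families above it and 10 below it. The median of the 23 families was 335 CPM. Reads that match several copies went to no gene. These sums and the ratios below therefore describe counted reads and not the output of each copy.

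Mir7a-2 had 2.18 times the counts of Mir7a-1 in replicate 1, with an exact 95% interval of 1.97 to 2.42, against 1.61 times in replicate 2, with one of 1.37 to 1.89, a mean of 1.89 ± 0.402 (SD, n = 2). In 21 families the last copy had counts in both libraries, so that a ratio could be formed. In 16 of the 21 families the leading copy exceeded the last by more on the mean of the libraries, and in 4 by less. The median family ratio was 4.06. The most even family was Mir29b, with 190 and 177 counts of its copies (replicate 1) and 150 and 131 (replicate 2). At the other end of the 21 stood Mir9, where Mir9-3 had 355 and 367 counts in replicates 1 and 2 and Mir9-2 had 1 and 9. Of the 23 families, Mir194 and Mir3074 are outside this ranking, since the last copy had 0 counts in replicate 2. The Mir194 copies had 132 and 0 counts (replicate 1) and 89 and 0 (replicate 2). The Mir3074 copies had 45 and 1 counts (replicate 1) and 6 and 0 (replicate 2).

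**Figure D4:**
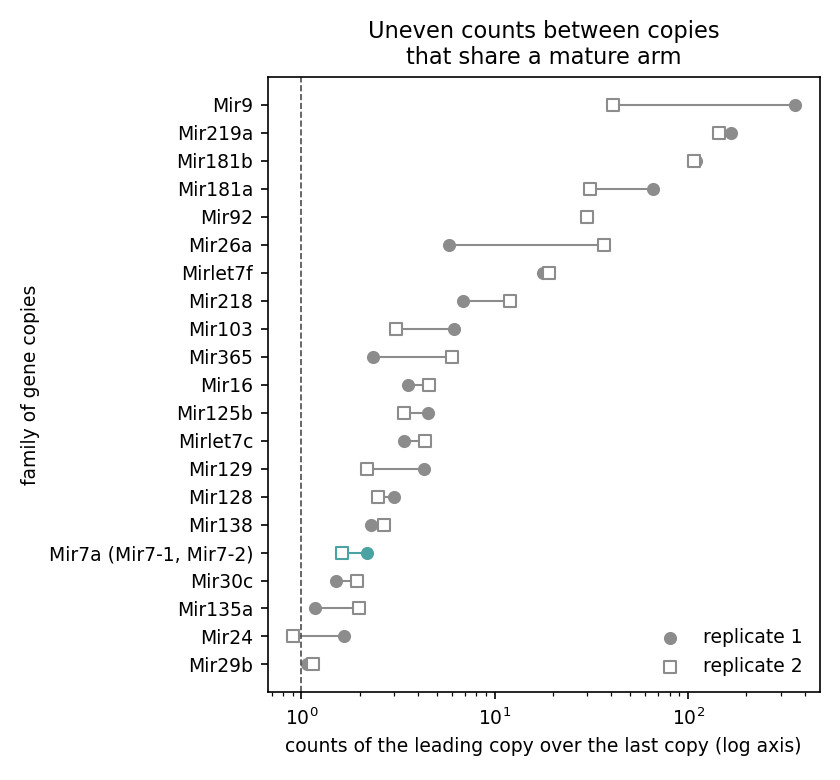
Counts of the leading copy over those of the last copy, on a log axis, in replicate 1 (filled circles) and replicate 2 (open squares). The 21 families of gene copies shown have an identical mature arm and counts of the last copy in both libraries. The Mir7a pair, in colour at 2.18 and 1.61, is among the more even families in counted reads, and the Mir9 ratio of replicate 1 rests on 1 count. Reads that match several copies are in none of these counts.

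The miR-7 side of the Cdr1as pairing can be read from the annotation. Cdr1as is transcribed from the strand opposite the single-exon gene Cdr1 (ENSMUSG00000090546.2; chrX:61184005-61185558, minus strand). The bounds of the circle are not in the annotation used here, so the stretch described is the strand opposite annotated Cdr1, 1554 bases long. The letters GTCTTCC, the reverse complement of the miR-7 seed, occurred 79 times on this strand and 0 times on the Cdr1 strand, or once per 19.7 bases. In the first 1554 bases of the longest transcript of each of 23495 genes, 18.9% held these letters on the opposite strand, with at most 11 occurrences, and 30.5% held them on either strand. A match describes letters and is not evidence of binding.

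**Figure D5:**
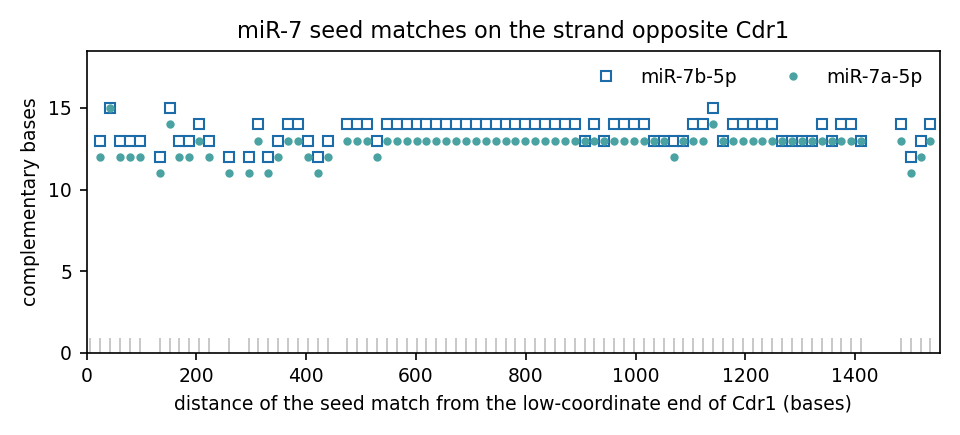
Seed matches along the strand opposite Cdr1 (grey ticks, by distance in bases from the low-coordinate end) and the number of bases complementary to miR-7b-5p (open squares) and miR-7a-5p (filled circles) at the 78 with a full window. The 79 matches recur along most of the stretch, and no site is complementary to more than 15 bases of either miRNA.

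The matches were regularly spaced, with 72 of the 78 gaps at exactly 18 bases. Complementarity was counted without bulges and with Watson-Crick pairs only. At the 78 matches with a full window, 11 to 15 bases of miR-7a-5p were complementary (median 13) and 12 to 15 of miR-7b-5p (median 14). More bases were complementary to miR-7b-5p than to miR-7a-5p at 65 matches, the number was equal at 13, and at 0 it was lower. An A opposite base 1 of miR-7 followed 2 of the 79 matches, and base 9 was complementary at 70.

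A pair of sites shows the pattern, with the seed match in capitals (mm10, plus strand). The first has the most complementary bases for both miRNAs, 15 each. The second is the most frequent site sequence, present at 18 of the matches, with 13 bases complementary to miR-7a-5p and 14 to miR-7b-5p.
Most complementary site (chrX:61184031-61184054): ttcctgaaaatccaccGTCTTCCa
Most frequent site (chrX:61184355-61184378): cttcccgaaaatccaaGTCTTCCc

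For miR-671-5p the letters GGCTTCC, the reverse complement of its seed, occurred 0 times on either strand of this stretch, while 33.8% of the 23495 windows held them on either strand. At no position of the stretch were more than 15 of the 23 bases of miR-671-5p complementary. This says only that these letters are not within annotated Cdr1. The rest of the circle was not analysed here.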

How the data were processed

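The authors deposited raw read counts per microRNA gene for each library, with no normalization, in 3 columns (strand ignored, strand of the gene, opposite strand) after 4 rows for reads in no gene. Assembly mm10 and annotation GENCODE M21 are named in text deposited beside the counts. For the aligner and the counting program, nothing is stated in the sources used. Of 11224232 reads (replicate 1) and 8758378 reads (replicate 2), 36.6% and 36.4% fell in genes, while 39.1% and 41.4% had several genomic matches and went to no gene.

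Gene-strand counts were scaled to CPM. Exact binomial tests and Clopper-Pearson intervals used scipy 1.17.1, and alternative scalings used edgeR 4.0.16 (TMM) and DESeq2 1.42.0. The exact binomial test replaced a model with replicate spread because a single group of 2 libraries has no contrast. On counts simulated for 406 genes it recovered 77.0% of 200 genes changed 1.5-fold and called 1.94% of the unchanged. The simulated counts held read sampling as the only spread between libraries, which is what the test assumes. Those shares are thus no error rate for the libraries here, where 58.1% of detected genes were called. Named genes were the members, the 3 nearest genes of each, genes sharing a seed, the first and last gene of each marker list, and the families of copies with the highest and lowest ratio. Mir122, Mir133b and the copy families Mirlet7a and Mir124a were named after their values were seen. The members and lists were chosen with earlier results of these data known. Sequences came from RefSeq (GRCm38.p6) and GENCODE M21 transcripts.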

Additional observations from a re-analysis of the deposited data

Results flagged for a closer look

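A large part of the reads lay outside the counts used here, and what they are was not analysed. Reads with more than 1 genomic match were 39.1% of replicate 1 and 41.4% of replicate 2, counted in no gene. Reads of miR-7a-5p within the 24 bases shared by Mir7a-1 and Mir7a-2 would be among them, and their number was not analysed here. No group had the 4 samples that a check for single outlying samples needs.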

How the results depend on the processing

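The direction of each member's difference between the libraries held under all alternatives run. Log2 ratios ranged from 0.51 to 0.59 for Mir7b, 1.09 to 1.18 for Mir7a-2 and 0.66 to 0.74 for Mir7a-1, all past the threshold. Mir671 ranged from -0.15, with DESeq2 size factors, to -0.067, with strand ignored. At the unaltered -0.068 it missed the threshold with no count minimum, where more genes are tested, and at an adjusted p under 0.01. With the total of all reads the mean levels were 1130 CPM for Mir7b, 76.4 for Mir7a-2, 38.9 for Mir7a-1 and 490 for Mir671, and the summed share was 0.173%, since that total also holds reads in no gene. Mir671 moved to 1476 CPM without the most abundant gene, Mir139, in the total, which makes that total smaller, and to 1439 CPM with strand ignored. With strand ignored the other members rose too, to 3319 CPM (Mir7b), 224 CPM (Mir7a-2) and 114 CPM (Mir7a-1), each within the SD of its libraries. The ratio of Mir671 to the summed Mir7 genes stayed at 0.414 there. The members had 0 counts on the opposite strand, so ignoring strand added no reads to them. The rise therefore lies in the total used for scaling, which is smaller with strand ignored. Why that total is smaller was not tested. Against the Mir7a genes alone, whose counts leave out miR-7a-5p reads within the shared run, the mean ratio of Mir671 was 4.85. Leaving the leading gene out of the marker sums, an alternative chosen after seeing the data, turned the difference of replicate 1 minus replicate 2 to -6247 CPM for the neuron list, 4.96 CPM for liver, muscle and red cells and 64.0 CPM for microglia and leukocytes. Leaving out a library gave 12 further values, among them a Mir7a-2 level of 128 CPM without replicate 1, against a mean of 209 CPM and 290 CPM without replicate 2. A difference between 2 libraries cannot be computed without either. Depth limits Mir7a-1 most, with 254 counts in replicate 2. No paired analysis was possible because there is 1 group.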

Other observations

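Mir7j and Mir7k carry similar symbols but are not of the miR-7 family by sequence. Neither hairpin holds the letters of the miR-7 seed, and neither shares more than 7 bases in a row with Mir7b. Counts of Mir7j on chromosome 3 were 85 (replicate 1) and 84 (replicate 2), and those of Mir7k on chromosome 5 were 1 and 0. These genes were named after their values were seen.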
